A study of Mus musculus with 14 samples.

Results

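The interval between 8 h and 12 h after partial hepatectomy was examined by setting the 2 liver arrays taken at 12 h against the 2 taken at 8 h, probe set by probe set, as the log2 difference 12 h minus 8 h. These 4 arrays were chosen by their time label alone, out of 14 in the series. Normal liver took no part in the contrast and is given beside it as a level. In partial hepatectomy (PHx) a large share of the liver of a mouse is cut away and the remnant grows back. The series holds mouse liver at 4, 8, 12, 36, 48 and 72 h after PHx and normal mouse liver, with 2 arrays for each of the 7 groups. Strain, sex and age of the mice and any treatment other than PHx are not given in the sources used here. Livers of 4 to 6 mice were grouped for an RNA extraction, so an array stands for a pool. Whether both arrays of a time share a pool is not in the labels, so the p-values below measure the spread between these arrays, which may be technical.

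In the first hours after PHx, hepatocytes leave quiescence. Immediate-early transcription factors and the response to interleukin-6 and tumour necrosis factor come first, and a growth programme that leads towards DNA synthesis follows later. An acute phase response, in which the liver secretes serum amyloid A and other plasma proteins, runs in the same hours, and hepatocyte metabolism is adjusted while the remnant keeps working. Mouse liver genes also follow the time of day, and no clock time of the operations or collections is used here. In a whole-liver extract, fewer cells of a type and less RNA per cell cannot be told apart.

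The values are intensities on a linear scale, 1 per probe set and array. The 2% trimmed means of all 14 arrays lay between 499.5 and 499.9. Albumin (Alb), which marks hepatocytes, read 48810 and 41240 at 12 h, against 45880 and 42430 at 8 h. Hepatocyte RNA was thus present in all 4 arrays, which does not show whether other tissue was present too. The 12 h arrays were the least alike pair of the series: their log2 values correlated with r = 0.91 across the tested probe sets, against 0.963 for the 8 h arrays and 0.942 to 0.97 in the other 5 groups. More than 1 log2 unit separated the 12 h arrays for 10.8% of the probe sets, against 2.91% at 8 h. The 5′ to 3′ signal ratio of the pyruvate carboxylase control was 0.4785 and 0.09095 at 12 h, against 0.4325 and 0.1049 at 8 h. The low ratio thus belonged to replicate 2 at both times, and differences are also given within replicate 1 and within replicate 2.

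Few probe sets separated 12 h from 8 h beyond the spread between arrays. Of 13576 tested, 2 rose and 66 fell at a Benjamini-Hochberg adjusted p of at most 0.05 in limma, a fit over all 14 arrays. That is 0.501% of those tested, 0.0147% for rises and 0.486% for falls. At an unadjusted p under 0.05 there were 682 probe sets, or 5.02%, with 289 higher (2.13%) and 393 lower (2.89%). Mean intensity differed at least 2-fold in 506 (3.73%). The same fit called 193 probe sets (1.42%) between 8 h and 4 h and 597 (4.4%) between 36 h and 12 h. The count hung on single arrays: it was 361, with 134 rises, without the first 12 h array, and 35 without the second. It was 22 without the first 8 h array and 18 without the second. In all 68 the arrays of the 2 times did not overlap, which fixes 1 sign within both replicate numbers. The 68 were picked on these same arrays, so their shared sign is no separate support. Of all tested probe sets, 49.4% had 1 sign in both.

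The 61 called probe sets that carry a single gene symbol belong to 45 genes, of which 43 fell and 2 rose. Pancreatic acinar genes make up 27 of the 45, skeletal muscle genes 5 and insulin 1, while 12 are in none of these 3 lists. Without the genes of the 3 lists, 23 of the 68 called probe sets were left. By limma, 63 of the 66 that fell had been higher at 8 h than in normal liver. That comparison uses the same 8 h arrays, and a fall from 8 h favours high 8 h values. The count is thus no separate support, and the share over all probe sets is not given here. The plot of every tested probe set shows the called falls spread far below the main cloud and the called rises at its upper edge.

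**Figure D1:**
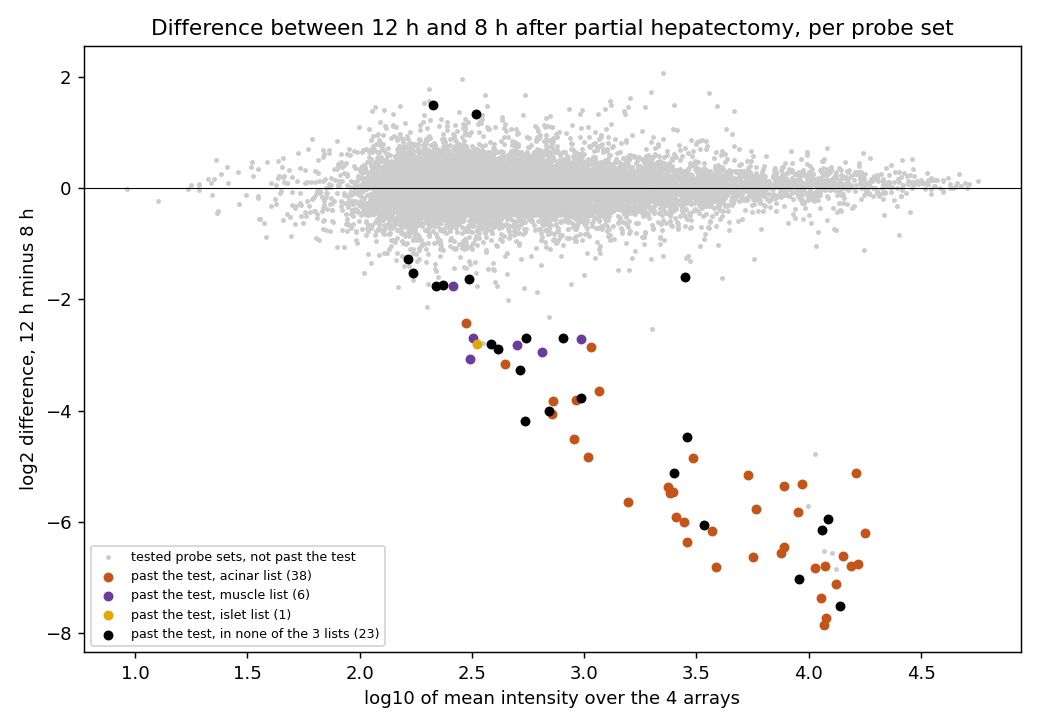
Each point is a probe set; the horizontal axis is the log10 of its mean intensity over the 4 arrays and the vertical axis its log2 difference, 12 h minus 8 h. The 68 probe sets past the test are coloured by marker list: 38 in the acinar list, 6 in the muscle list, 1 in the islet list and 23 in none, and 2 of the 68 lie above 0.

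Digestive enzyme genes of the exocrine pancreas fell most. Of the 31 acinar-list genes on the array, all of which were tested, 27 fell and none rose, where 0.497% of 8453 genes fell. The list median was -5.35 on the log2 scale, with -5.21 within replicate 1 and -5.4 within replicate 2, against 0.03 over all genes. Summed over the list, intensity was 9000 and 6519 at 12 h, against 387500 and 363200 at 8 h. The 12 h sums were close to the 7203 and 5846 of normal liver, so both 8 h arrays stood far above either group. The 4 list genes that did not pass were Ctrc, Amy1, Bhlha15 and Ptf1a.

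Cpa1, which encodes carboxypeptidase A1, read 136.7 and 7.5 at 12 h, against 25170 and 22230 at 8 h (log2 difference -7.73, SE 1.28, limma adjusted p = 0.0177). The groups were far apart, although the 2 arrays at 12 h differed. Clps, the colipase needed by pancreatic lipase, read 293.9 and 222.2 at 12 h, against 18000 and 17400 at 8 h (-5.83, SE 0.46, limma adjusted p = 0.000182). Sycn, a zymogen granule protein, read 13.8 and 10.4 at 12 h, against 8081 and 7399 at 8 h (limma adjusted p = 0.00106). Both 12 h arrays were below background there, so Sycn was at least 64.8-fold lower, where background on an array is the 95th percentile of its 27 probe sets for bacterial transcripts. Pnliprp2, a pancreatic lipase-related protein, read 5.4 and 7.7 at 12 h, against 2974 and 3305 at 8 h, at least 26.3-fold lower (limma adjusted p = 0.00085). Clps, Sycn and Pnliprp2 passed under every alternative in which they were tested and without each of the 4 arrays.

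The other falls of this kind covered the main enzyme classes. Carboxypeptidase B (Cpb1, log2 difference -7.37), chymotrypsin-like protease (Ctrl, -7.11), chymotrypsinogen B (Ctrb1, -6.21), elastases (Cela3b, -6.79, and Cela2a, -6.76) and anionic trypsin (Prss2, -6.61) cleave proteins. Pnliprp1, a lipase relative (-6.64), Zg16, a zymogen granule protein (-6.46), Reg1, a secreted lectin of acinar cells (-6.57), and the tissue kallikrein gene Klk1 (-6.01) fell with them. Trypsins, elastases, kallikreins and Reg proteins are families of near-identical genes. Several of their probe sets can bind more than one member, so the split among members is uncertain. Cpa1, Cpb1, Ctrl, Ctrb1, Cela3b, Cela2a, Prss2, Pnliprp1, Reg1 and Klk1 lost the call without the first 8 h array (limma adjusted p from 0.0774 for Klk1 to 0.39 for Cela3b), without the second 8 h array (0.0851 for Klk1 to 0.318 for Cela3b and Cela2a) and without the second 12 h array (0.0809 for Klk1 to 0.355 for Cela3b). Zg16 lost it without the second 8 h array (0.0518). With the replicate number as a block, Cela3b (0.0868), Cela2a (0.0755) and Prss2 (0.0517) missed the threshold. The 36 h arrays were split in these genes, with 7 and 4040 for Cpa1 and 19.1 and 5182 for Cela3b. That split adds to the spread in the fit. In a fit of only the 8 h and 12 h arrays, which leaves 36 h out, all calls of this paragraph held. With array weights or a pseudocount of 14.25, all but that of Zg16 were lost.

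Acinar cells switch on these genes through PTF1, a complex that binds an E-box, CANNTG, next to a TC-box, TTTCCC. The 250 bases before the transcription start were read from RefSeq (GRCm38.p6) for 22 of the 27 genes. These genes were listed as acinar beforehand, and whether the motifs bear on their fall was not tested. On either strand, CANNTG occurred in 86.4% of these 22 and in 66.0% of 27025 promoters of the same length. TTTCCC occurred in 31.8% and 21.9%, and both in 31.8% and 14.1%. Both were counted anywhere in the window, at any distance and in any order, so these are not counts of PTF1 sites. The 4 largest falls whose window holds both motifs are shown, 5′ to 3′ on the strand of the gene, with the motifs in capitals. They are Cpa1 (chr6:30638968-30639217, plus strand), Cela2a (chr4:141826006-141826255, minus strand), Prss2 (chr6:41521526-41521775, plus strand) and Reg1 (chr6:78425733-78425982, plus strand).
Cpa1: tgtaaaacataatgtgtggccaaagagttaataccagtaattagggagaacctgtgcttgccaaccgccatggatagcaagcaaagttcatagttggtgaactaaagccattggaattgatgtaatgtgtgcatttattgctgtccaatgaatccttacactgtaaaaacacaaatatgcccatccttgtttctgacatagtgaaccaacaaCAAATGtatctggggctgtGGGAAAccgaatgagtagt
Cela2a: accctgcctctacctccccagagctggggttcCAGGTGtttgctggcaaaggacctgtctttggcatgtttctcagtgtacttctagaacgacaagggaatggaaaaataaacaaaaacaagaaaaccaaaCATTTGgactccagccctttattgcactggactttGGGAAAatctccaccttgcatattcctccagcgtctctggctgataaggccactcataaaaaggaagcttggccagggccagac
Prss2: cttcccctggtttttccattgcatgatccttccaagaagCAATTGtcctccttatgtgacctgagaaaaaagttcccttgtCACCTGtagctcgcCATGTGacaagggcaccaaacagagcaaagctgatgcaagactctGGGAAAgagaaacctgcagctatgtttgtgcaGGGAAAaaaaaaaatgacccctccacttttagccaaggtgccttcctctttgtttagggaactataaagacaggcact
Reg1: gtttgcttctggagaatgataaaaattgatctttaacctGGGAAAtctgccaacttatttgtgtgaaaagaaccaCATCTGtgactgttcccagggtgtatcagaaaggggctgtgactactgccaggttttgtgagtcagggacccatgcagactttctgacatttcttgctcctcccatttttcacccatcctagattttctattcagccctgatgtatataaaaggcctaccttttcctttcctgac
A match of letters is a description of the sequence. It shows neither a bound site nor a cause, and these 4 were picked for holding both motifs.

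Endocrine pancreas and skeletal muscle transcripts were lower at 12 h as well, by less. Ins2, 1 of the 2 insulin genes of the mouse, read 41.8 and 37.6 at 12 h, against 680.2 and 570.3 at 8 h, at least 5.22-fold lower (limma adjusted p = 0.00901). Its probe set may also bind the other insulin gene, and Pyy, the other islet gene tested, did not pass. Ins2 reached the filter mean of 128.8 only through its 8 h values, which favours a fall from 8 h. Of 22 muscle-list genes tested out of 29 on the array, 5 fell and none rose, where 0.497% of all genes fell, and the list median was -0.87. Summed muscle-list intensity was 5609 and 5449 at 12 h, against 17120 and 16120 at 8 h.

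Ckm, muscle creatine kinase, read 226.8 and 197.3 at 12 h, against 1737 and 1698 at 8 h (log2 difference -2.72, SE 0.36, limma adjusted p = 0.00348). Mb, myoglobin, read 127.6 and 42.8 at 12 h, against 1060 and 778.5 at 8 h (-2.83, SE 0.52, limma adjusted p = 0.0308). Both genes were several times higher at 8 h in either array. Tnni2, a fast troponin, was at least 5-fold lower and Myl1, a myosin light chain, at least 4.93-fold lower. The fast troponin gene Tnnc2 differed by -2.94 with an adjusted p of 0.0497. It no longer passed with the control ratio as a term (0.0771) or in a fit of only these 4 arrays (0.261). With the replicate number as a block, neither Mb (0.0597) nor Tnnc2 (0.0921) passed. Leaving out an 8 h array ended the Ins2, Ckm, Mb, Tnni2 and Tnnc2 calls. The adjusted p without the first and without the second was 0.129 and 0.0834 for Ins2, 0.059 and 0.0533 for Ckm, 0.336 and 0.19 for Mb, 0.129 and 0.0955 for Tnni2, and 0.396 and 0.318 for Tnnc2. Without the second 12 h array, Ins2 (0.0809), Mb (0.27), Tnni2 (0.0936) and Tnnc2 (0.342) missed it too. Muscle alpha-actin, Acta1, had 682.1 and 445.4 at 12 h and 3464.9 and 3460.8 at 8 h, and did not pass (adjusted p = 0.332).

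The acinar and muscle sums ran differently over the course. The acinar sum was highest at 8 h, where it exceeded the 52650 and 52610 of 4 h. The muscle sum was highest at 4 h, with 26470 and 25460, and lower at 8 h and again at 12 h. At 36 h the arrays split, with 3483 in the first and 63900 in the second for the acinar list. That array adds to the spread in the fit for acinar genes. Without it, 78 probe sets were called, 67 of them among the 68. The part of pancreas or muscle in the liver pools in other differences was not tested.

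**Figure D2:**
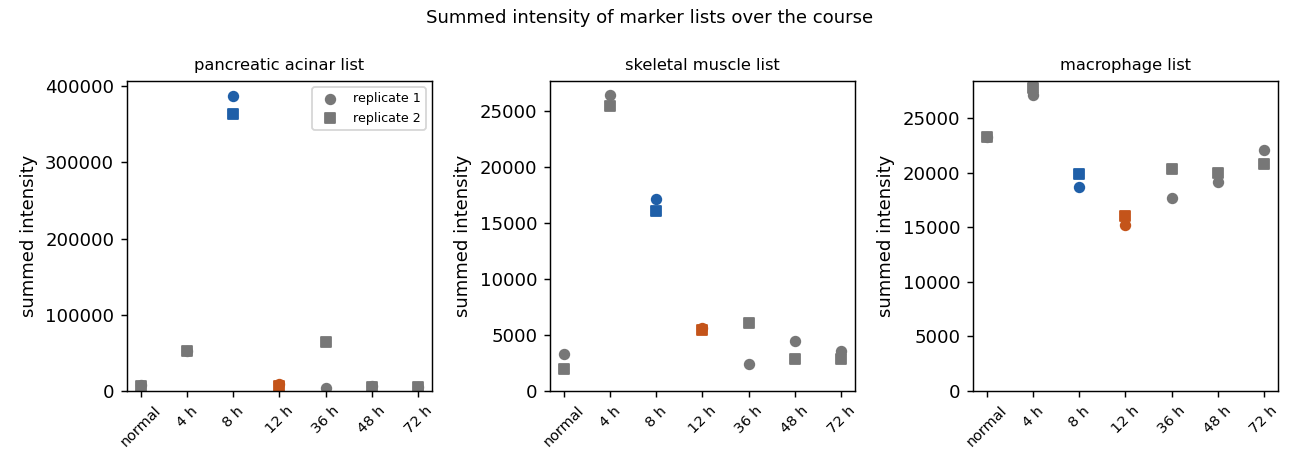
Summed intensity of the acinar, muscle and macrophage lists (vertical axes, from 0) in each array along the course (horizontal axes); circles are replicate 1 and squares replicate 2, with 8 h in blue and 12 h in orange. The acinar sum peaks in both 8 h arrays at 387500 and 363200 and is 9000 and 6519 at 12 h.

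Outside the acinar, islet and muscle lists, Nupr1, Krt4 and Gga1 fell under every alternative in which they were tested and without each of the 4 arrays. Nupr1 and Krt4 reached the filter mean of 128.8 only through their 8 h values, which favours a fall from 8 h. Nupr1, a small nuclear stress-response protein, read 60.6 and 109.3 at 12 h, against 1758 and 1952 at 8 h, at least 15.5-fold lower (limma adjusted p = 0.00103). Krt4, a keratin of stratified epithelia, read 43.7 and 46.5 at 12 h, against 1349 and 638.1 at 8 h, at least 7.77-fold lower (limma adjusted p = 0.000596). Gga1, an adaptor for sorting of cargo at the Golgi, read 56.1 and 41.1 at 12 h, against 1056 and 493.1 at 8 h, at least 6.04-fold lower (limma adjusted p = 0.00133). All 3 were below background in both 12 h arrays, and at 8 h the first array held more Krt4 and Gga1 signal than the second. Gga1 alone of the 3 differed between 12 h and normal liver (log2 difference -1.72, limma adjusted p = 0.00687). At 36 h, Nupr1 read 54.4 in the first array and 220.4 in the second, where the acinar sum was higher. Krt4 read 23.1 and 28.7 there, and Gga1 53.4 and 83.8. The part of pancreas in these 3 differences was not tested.

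Further falls outside the 3 lists were Reg3b, Reg3d, 2210010C04Rik and Dmkn. Reg3b, a secreted antibacterial lectin, read 248 and 150 at 12 h, against 5782 and 5312 at 8 h (log2 difference -4.48, SE 0.85, limma adjusted p = 0.0424). Its relative Reg3d read 166.8 and 181.8 at 12 h, against 1559 and 1317 at 8 h (-2.69, SE 0.46, limma adjusted p = 0.0222). 2210010C04Rik read 398.4 and 275.7 at 12 h, against 25420 and 22530 at 8 h (-5.95, SE 0.96, limma adjusted p = 0.0151). Its mean was 167.6 in normal liver and 3406 at 4 h. Dmkn, dermokine, read 69 and 66.3 at 12 h, against 431.2 and 310.5 at 8 h, at least 3.06-fold lower (limma adjusted p = 0.0116). Dmkn reached the filter mean of 128.8 only through its 8 h values. At 36 h, where the second array had the higher acinar sum, Reg3b read 97.5 in the first and 2024 in the second. In the same order, 2210010C04Rik read 112 and 2670, Reg3d 120.1 and 502, and Dmkn 131.9 and 183.7. The part of pancreas in these 4 differences was not tested.

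Leaving out 1 array ended these 4 calls. Without the first 8 h array the adjusted p was 0.336 for Reg3b, 0.229 for Reg3d, 0.169 for 2210010C04Rik and 0.186 for Dmkn. Without the second 8 h array it was 0.303, 0.163, 0.151 and 0.0563, and without the second 12 h array 0.271, 0.129, 0.135 and 0.0884, in the same order of genes. Reg3b also missed the threshold with the control ratio as a term (0.0511) and with the replicate number as a block (0.0783). Dmkn missed it in a fit of only these 4 arrays (limma adjusted p = 0.0913).

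A secreted plasma protein and a chemokine were the liver and immune genes that fell. Saa4, the constitutive serum amyloid A of hepatocytes, read 1798 and 1010 at 12 h, against 3716 and 4746 at 8 h (log2 difference -1.60, SE 0.28, limma adjusted p = 0.0236). Both 12 h arrays were below both 8 h arrays, and the 8 h level was near the normal mean of 4670. Cxcl9, a chemokine induced by interferon gamma, read 86.7 and 59.1 at 12 h, against 244.7 and 265.7 at 8 h, at least 2.14-fold lower (limma adjusted p = 0.0307). Cxcl9 averaged 341.5 in normal liver, 302 at 4 h and 12.35 at 36 h. A second probe set of Cd24a, a surface glycoprotein, fell (-1.53, limma adjusted p = 0.0331), but the brighter one did not pass (-1.07, limma adjusted p = 0.132).

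The Saa4 and Cxcl9 calls rested on every array but the first of 12 h. Saa4 had an adjusted p of 0.129 without the first 8 h array, 0.314 without the second and 0.161 without the second 12 h array. For Cxcl9 these were 0.228, 0.318 and 0.206. Within replicate 1 and replicate 2 the log2 difference was -1.02 and -2.17 for Saa4 and -1.07 and -1.47 for Cxcl9. In a fit of only these 4 arrays neither passed (limma adjusted p = 0.423 for Saa4 and 0.323 for Cxcl9). With array weights the values were 0.0583 and 0.143. Saa4 also missed the threshold with a pseudocount of 14.25 (0.0623). Cxcl9 missed it with a pseudocount of 228 (0.129) and with an intensity trend (0.153).

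Nfx1 and Tmem189 were the 2 genes that rose. Nfx1, a zinc finger protein that binds the X-box of class II histocompatibility genes, read 338.1 and 340.1 at 12 h, against 79.8 and 88.2 at 8 h (log2 difference 1.49, SE 0.27, limma adjusted p = 0.0292). The 12 h level was near the 366.2 of normal liver, and 8 h was the lowest of the 7 groups. The second 8 h array was below its background of 92.18. Nfx1 did not pass in a fit of only these 4 arrays (limma adjusted p = 0.12) or without the filter (0.0513). It also missed the threshold with a pseudocount of 228 (0.0584) and with array weights (0.133). Without the first 8 h array the adjusted p was 0.283, without the second 0.23, and without the second 12 h array 0.155. One probe set of Tmem189, a transmembrane protein gene, read 622.6 and 379.8 at 12 h, against 156.7 and 160.3 at 8 h (1.34, SE 0.24, limma adjusted p = 0.0292). The other 2 probe sets of Tmem189 did not pass, with differences of 0.71 and 0.09.

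**Figure D3:**
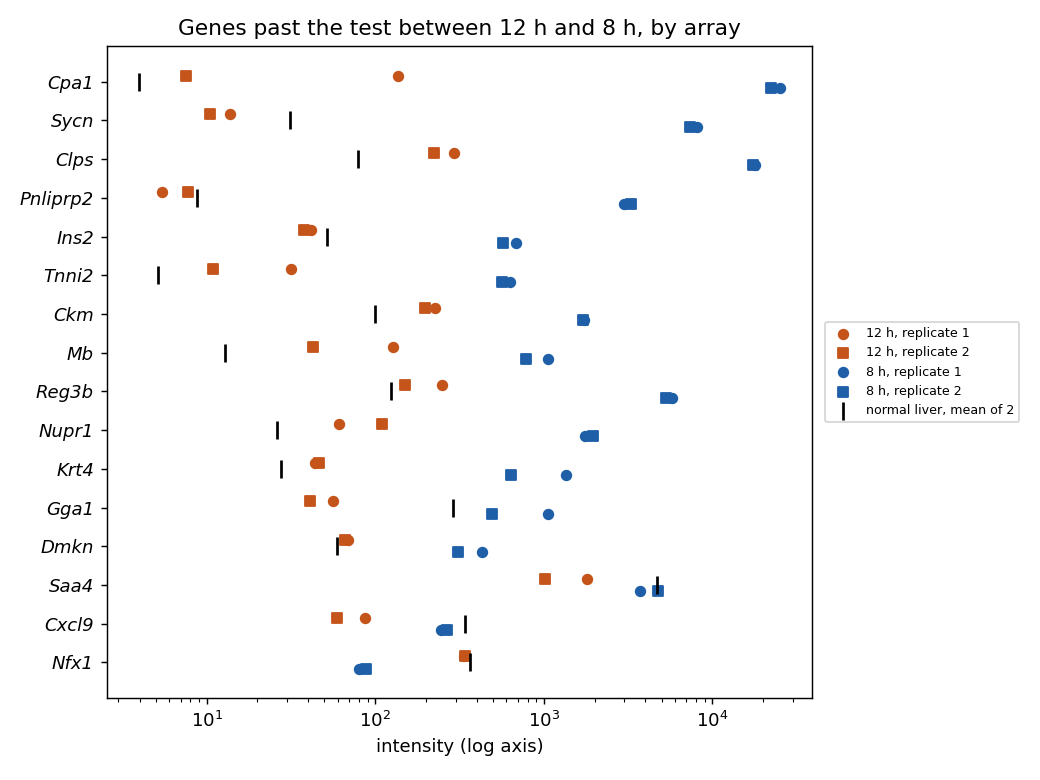
Intensity (horizontal log axis) of 16 genes past the test in the 12 h arrays (orange, upper row of each gene) and the 8 h arrays (blue, lower row); circles are replicate 1, squares replicate 2 and black ticks the mean of the 2 normal arrays. In each gene the groups do not overlap; Nfx1 is the gene shown whose 12 h arrays are the higher ones.

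Genes that came next in rank, without passing, included regulators of the daily clock. Bhlhe40, a repressor in the clock and the hypoxia response, read 1594 and 5965 at 12 h, against 751.9 and 648.4 at 8 h (log2 difference 2.06, SE 0.45, limma adjusted p = 0.108). Cry2, a core clock repressor, read 166 and 212.7 at 12 h, against 44.9 and 29.3 at 8 h (1.39, SE 0.36, limma adjusted p = 0.241). Per1, its partner, was named as a landmark gene and not by rank. It read 1080 and 1465 at 12 h, against 346.6 and 538.2 at 8 h (1.42, SE 0.51, limma adjusted p = 0.747). The groups did not overlap for these 3. Of 19 clock-list genes tested, none passed, 9 had both 12 h arrays above both 8 h arrays and 1 the reverse, where 17.2% of all genes were higher and 13.4% lower in this way. At an unadjusted limma p under 0.05, 5 clock genes were higher and 0 lower, where 2.13% of all probe sets were higher and 2.89% lower. The list median was 0.23, with 0.44 within replicate 1 and 0.27 within replicate 2.

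Arntl, the activator on the other arm of the clock, split at 12 h, with 27.4 in the first array and 223.3 in the second, against 221.9 and 249.5 at 8 h. Of the other genes filling the ranks of higher ones, Fgfrl1, a receptor-like binder of fibroblast growth factors, differed by 1.05 (limma adjusted p = 0.101) and Pqbp1, a splicing-associated protein, by 1.11 (0.102). Nat8, an acetyltransferase gene, read 586.5 and 467.1 at 12 h, against 196.7 and 159.4 at 8 h (limma adjusted p = 0.163). Slc3a2, the heavy chain of amino acid transporters, differed by 0.83 (limma adjusted p = 0.314).

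Among the genes just short of the threshold on the lower side, Col3a1 came closest. This collagen gene of stellate cells and fibroblasts read 448.1 and 390.8 at 12 h, against 956.1 and 919.2 at 8 h (log2 difference -1.06, SE 0.21, limma adjusted p = 0.0543). It passed with quantile normalization (limma adjusted p = 0.0303), a pseudocount of 228 (0.0298), the 60th percentile filter (0.0326), an intensity trend (0.027) or without the first 12 h array (0.035). Hal, the first enzyme of histidine breakdown, read 616.2 and 1045 at 12 h, against 2359 and 2320 at 8 h, with 7010 in normal liver (limma adjusted p = 0.0828). Hal passed with quantile normalization (0.0446), the larger pseudocount (0.036) or an intensity trend (0.0392). Leap2, a liver peptide that opposes ghrelin, read 2270 and 1269 at 12 h, against 3993 and 4061 at 8 h (limma adjusted p = 0.116). Leap2 passed with the larger pseudocount (0.0303) or without the first 12 h array (0.00912). Acacb, the acetyl-CoA carboxylase that restrains fatty acid oxidation, read 73.7 and 22.6 at 12 h, against 527 and 795.6 at 8 h (limma adjusted p = 0.14). Acacb passed in a fit of the 4 arrays alone, without (0.0406) and with (0.0159) the replicate number as a block. In each of the 4 genes the groups did not overlap.

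No immediate-early gene passed, and the 12 h arrays differed from each other in most of them. In 26 of the 27 genes tested, the second 12 h array was above the first, and 12 of the 27 were more than 1 log2 unit apart, against none between the 8 h arrays. Over all genes, the second 12 h array was above the first in 4445 of 8453. At an unadjusted limma p under 0.05, 6 immediate-early genes were higher and 0 lower, where 2.13% of all probe sets were higher and 2.89% lower. The list median was 0.43 in the fit, -0.21 within replicate 1 and 0.81 within replicate 2. Egr1, a transcription factor of the first response, read 1674 and 13350 at 12 h, against 1940 and 1664 at 8 h. Atf3, a stress-induced factor, read 220.6 and 1744 at 12 h, against 267.4 and 425.4 at 8 h. Maff, a small Maf factor, read 41.8 and 1048.9 at 12 h, against 27.5 and 28.9 at 8 h. The high value in each was the second 12 h array, while the first lay near 8 h for Egr1, Atf3 and Maff.

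Without the first 12 h array, several of these would have passed: Egr1 at 2.85 (limma adjusted p = 0.00466), Atf3 at 2.19 (0.0151), Fos at 1.88 (0.0173), Myc at 1.82 (0.0145) and Bhlhe40 at 3 (0.00153). Cdkn1a, the cell cycle inhibitor p21, would have been among them (1.20, limma adjusted p = 0.0381), as would Pdk4, a kinase that blocks glucose oxidation (1.85, 0.0344). On the lower side were Ccnd1, cyclin D1 (-1.79, 0.00424), Lcn2, lipocalin 2 (-1.53, 0.0109), and Pck1, the gluconeogenic enzyme (-2.71, 0.00153). The lone 12 h array is there assumed to vary like the arrays of the other groups.

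Other genes were higher in the first 12 h array than in the second. Hspa5, the main chaperone of the endoplasmic reticulum, read 33580 and 12700 at 12 h, against 13510 and 14920 at 8 h. Creld2, another protein of the endoplasmic reticulum, read 4131.5 and 569.9 at 12 h, against 1101 and 1086.8 at 8 h. In the list of endoplasmic reticulum folding genes, 28 of 34 were lower in the second 12 h array, and its median was 0.38 within replicate 1 and -0.13 within replicate 2. Lcn2, an acute phase protein, read 45690 and 9918 at 12 h, against 30990 and 26700 at 8 h. Ccnd1 read 1975 and 459.6 at 12 h, against 1618 and 1852 at 8 h, and Pck1 read 7783 and 1028 at 12 h, against 7334 and 6745 at 8 h. For Lcn2, Ccnd1 and Pck1 the 8 h arrays lay between the 12 h arrays or beside the first of them. The control ratio was low in the second array of both times, and its part in this split was not tested.

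**Figure D4:**
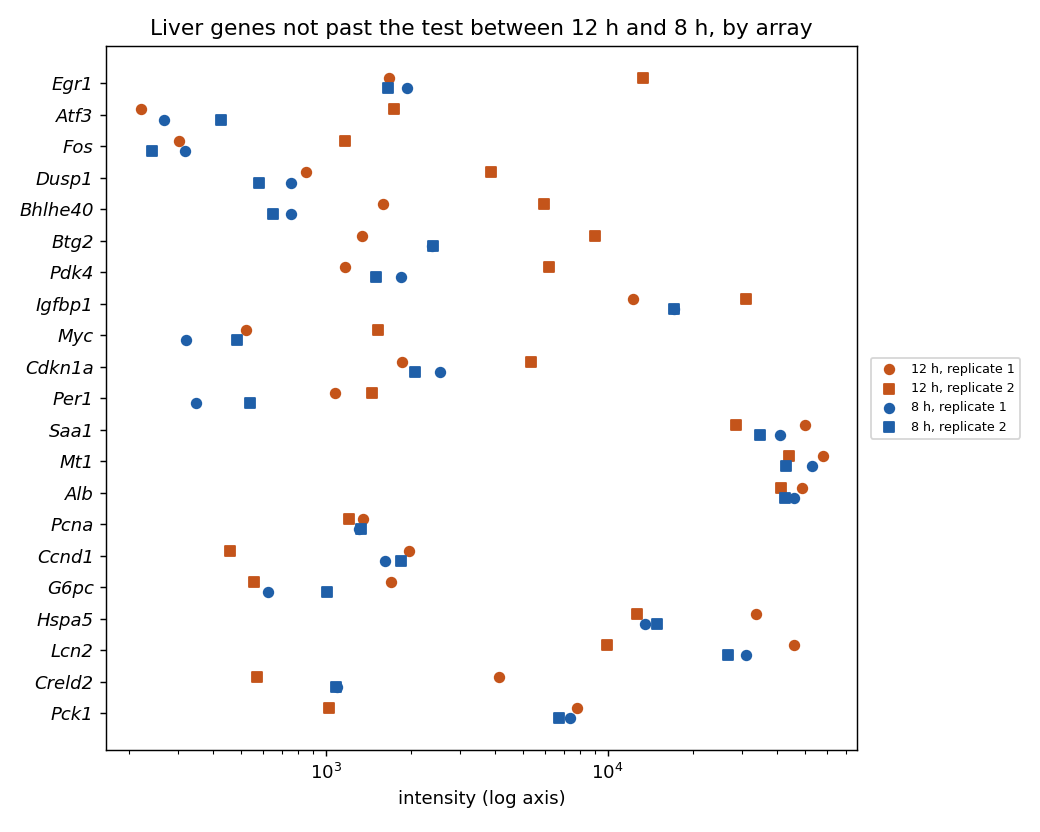
Intensity (horizontal log axis) of 21 liver genes that did not pass the test, in the 12 h arrays (orange, upper row of each gene) and the 8 h arrays (blue, lower row); circles are replicate 1 and squares replicate 2. The second 12 h array stands apart to the right for Egr1 at 13350 and the first 12 h array for Hspa5 at 33580, while the 8 h arrays of both genes lie close together.

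Saa1, Mt2 and Il1r1, which stood far above normal liver at 8 h, gave no call between 12 h and 8 h. Saa1, an inducible serum amyloid A, read 49880 and 28520 at 12 h, against 40690 and 34600 at 8 h (log2 difference 0.01, 95% interval -0.63 to 0.65), with a mean of 1053 in normal liver. Mt2, a metal-binding metallothionein, read 41770 and 43450 at 12 h, against 40140 and 44840 at 8 h (0.01, -0.63 to 0.64), with 2519 in normal liver. Il1r1, the interleukin-1 receptor, read 5526 and 3753 at 12 h, against 4654 and 4877 at 8 h (-0.06, -0.58 to 0.45), with 275.2 in normal liver. The groups overlapped in all 3, and the intervals leave room for differences of up to about those bounds. Of 27 acute phase genes tested, Saa4 fell, none rose, and the list median was 0.04.

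The cell cycle lists held no call. Pcna, the sliding clamp of DNA replication, read 1358 and 1215 at 12 h, against 1316 and 1339 at 8 h (log2 difference -0.04, 95% interval -0.51 to 0.42). Ccne1, cyclin E1, read 248.9 and 263.8 at 12 h, against 147.4 and 213.7 at 8 h (0.41, -0.28 to 1.11). Cdk1, the kinase of mitotic entry, read 36.1 and 44.5 at 12 h, against 20.6 and 32.6 at 8 h, below background in all 4 arrays. None of the 18 G1, 21 DNA replication and 24 mitosis genes tested passed, with medians of 0.17, -0.09 and -0.05. Of 39 landmark genes of liver regeneration tested, none passed, and 17 were more than 1 log2 unit apart between the 12 h arrays. At an unadjusted limma p under 0.05 there were 1, 1 and 2 genes of the G1, replication and mitosis lists and 4 landmark genes, where 5.02% of all probe sets were under it.

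Macrophage markers leaned lower at 12 h without a call in limma, where 6 had an unadjusted p under 0.05, all lower, against 2.89% of all probe sets. Of 27 genes tested, 24 had a difference below 0, and 15 had both 12 h arrays below both 8 h arrays, where 13.4% of all genes did. The list median was -0.40, with -0.25 within replicate 1 and -0.47 within replicate 2, against 0.03 over all genes. Summed over the list, intensity was 15250 and 16040 at 12 h, against 18710 and 19840 at 8 h. Lyz1, a lysozyme, read 349.6 and 130.3 at 12 h, against 1292 and 684.2 at 8 h (limma adjusted p = 0.244). Cd5l, a protein secreted by Kupffer cells, read 1435.1 and 543.2 at 12 h, against 1806.4 and 1636.4 at 8 h (limma adjusted p = 0.841). Cd14, the endotoxin co-receptor, lay the other way in the second array, with 941.2 and 4161.6 at 12 h against 1186.9 and 1222.1 at 8 h. Clec4f (0.07 and -0.91), Vsig4 (0.34 and -0.85) and Marco (0.65 and -1.69) were higher within replicate 1 and lower within replicate 2. Folr2 (-0.27 and -0.2) and the lysozyme gene Lyz2 (-0.37 and -0.6) were lower within both.

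Cholesterol synthesis and interferon genes also held no call in limma. At an unadjusted p under 0.05, 5 cholesterol synthesis genes were lower and 1 higher, and 6 interferon genes were lower and 0 higher, where 2.89% of all probe sets were lower and 2.13% higher. Of 20 cholesterol synthesis genes, 9 had non-overlapping arrays on the lower side and 3 on the higher, where 13.4% of all genes were lower and 17.2% higher in this way. The list median was -0.18. Hmgcs1, which makes the precursor of mevalonate, read 2445.5 and 2691.9 at 12 h, against 4624 and 6052.3 at 8 h (log2 difference -1.03, limma adjusted p = 0.225). Msmo1, a later sterol oxidase, lay on the higher side, with 1763.8 and 1837 at 12 h against 981.4 and 928.7 at 8 h (0.88, limma adjusted p = 0.784). Of 24 interferon and class I genes, 9 were non-overlapping on the lower side and none on the higher, against the same 13.4% and 17.2% of all genes, with a median of -0.18. Igtp, an interferon-induced GTPase, read 350.2 and 292.4 at 12 h, against 630.8 and 722.7 at 8 h (-0.96, limma adjusted p = 0.285).

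The plasma protein genes of hepatocytes gave no call outside Saa4. Of 38 coagulation and complement genes tested, none passed in limma (2 higher and 0 lower at an unadjusted p under 0.05, against 2.13% and 2.89% of all probe sets). Arrays did not overlap for 9 on the higher side, near the 17.2% of all genes, and for 0 on the lower, where 13.4% of all genes lay, and the median was 0.09. C6, a component of the membrane attack complex, read 637.7 and 1319.8 at 12 h, against 426.4 and 512.3 at 8 h (log2 difference 0.90, limma adjusted p = 0.548). F2, prothrombin, read 16778.4 and 16464.1 at 12 h, against 14808.5 and 13651.9 at 8 h (0.22, limma adjusted p = 1). Among fasting and glucocorticoid genes, Sult1e1, an oestrogen sulfotransferase, lay at 674.8 and 1308.3 at 12 h, against 323.6 and 400.2 at 8 h (1.26, limma adjusted p = 0.823). Klf15, a fasting-linked factor, lay at 345.4 and 239.1 at 12 h, against 629 and 494.6 at 8 h (-0.83, limma adjusted p = 0.443).

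**Figure D5:**
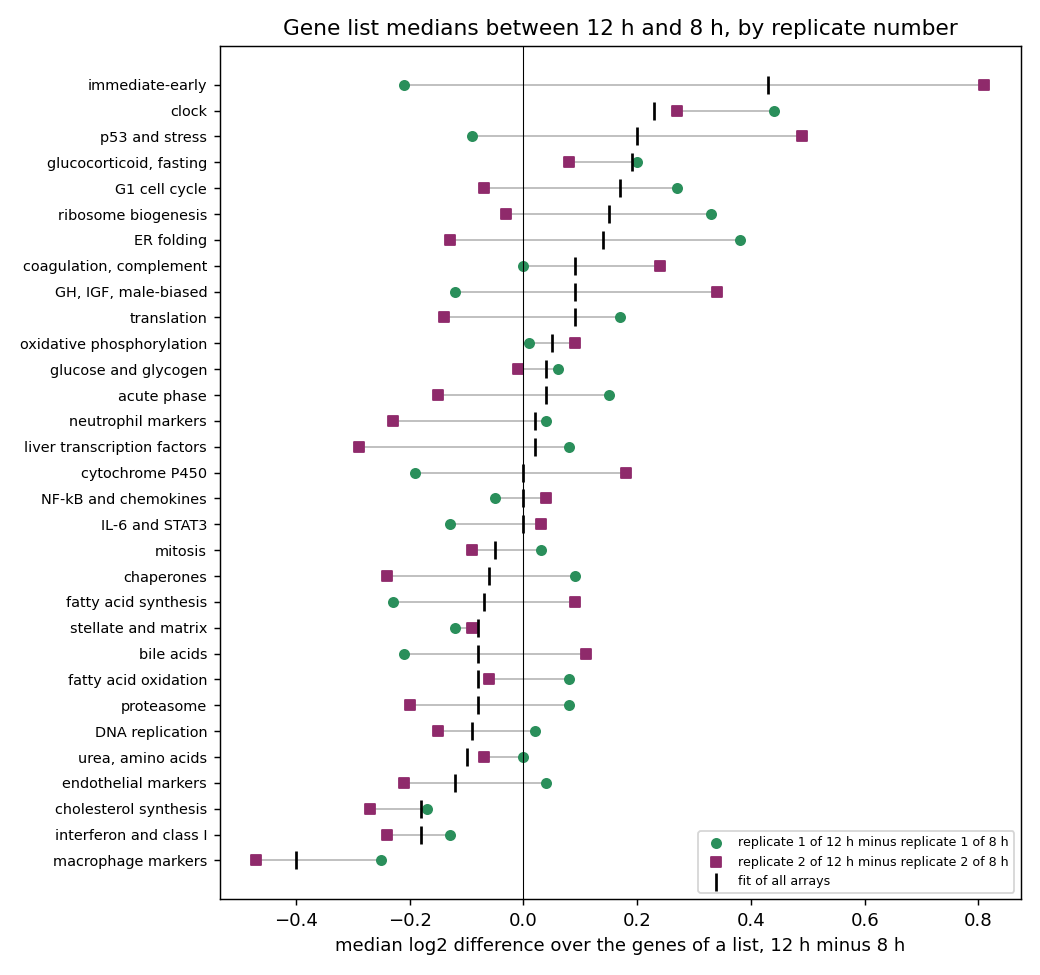
Median log2 difference, 12 h minus 8 h, over the tested genes of 31 lists (horizontal axis), within replicate 1 (green circles), within replicate 2 (purple squares) and in the fit of all arrays (black ticks). The immediate-early list runs from -0.21 to 0.81 between the replicate numbers, and the macrophage list is below 0 in both.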

How the data were processed

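Total RNA of mouse liver, labelled with biotin, was measured on 14 one-colour arrays, 2 for each of 7 groups. The deposited values are intensity on a linear scale, already scaled to a common level by the authors; no source used here names the software. GeneSpring 7.2 is named, per the design text, for the authors' selection of genes that differed 2-fold from normal liver. Of 22690 probe sets, 64 controls were left out, and 20380 of the rest carry 1 symbol in the array annotation. The log2 of each intensity plus 57, their 25th percentile, was used, so differences of dim genes are understated. Probe sets whose mean reached the 40th percentile, 128.8, were tested with limma 3.58.1 in R 4.3.3 (lmFit, eBayes; 7 residual and 5.078 prior degrees of freedom), with Benjamini-Hochberg adjustment. That mean is over all 14 arrays, so a gene dim elsewhere could be tested through high 8 h values alone. A gene is given by its brightest probe set. Where both arrays of the lower group were at or below background, the fold is a lower bound. Precision is limited by the number of arrays. The test was checked on simulated data. Named genes are the 15 largest called differences each way, with and without the 3 tissue lists (next ranks fill free places), up to 4 called genes of each of 50 lists, and 39 landmark genes. Other genes were named after their values were seen. The step, the lists and the landmark genes were chosen with earlier results of these data known.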

Additional observations from a re-analysis of the deposited data

How the results depend on the processing

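The count of 68 called probe sets was 30 with a pseudocount of 14.25, 28 with array weights, 44 with 1 probe set per gene, 23 without the acinar, islet and muscle lists and 506 by a 2-fold ratio of means with no test. Leaving out 1 of the 4 arrays gave 18 to 361. The other settings gave 50 to 79, among them quantile normalization (69), no filter (58), only these 4 arrays (66) and the control ratio as a term (64). Added after seeing the data were a fit without the second 36 h array (78) and one without the 4 arrays of low control ratio (56), which leaves 1 array at 8 h and 1 at 12 h. With the replicate number as a block, 57 probe sets were called, all among the 68. Same-numbered arrays deviated together (r = 0.233), but 2 pairs do not show that the numbers pair the samples. No called difference changed sign in any setting run. The arrays of the 2 times did not overlap in any of the 68, so this is no separate support. The 2 arrays per time, unlike at 12 h, limit what could be called, and signals at or below background allow only bounds.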
